A study of Mus musculus with 6 samples.

Results

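The genes described here are those of the peptides PACAP (*Adcyap1*) and VIP (*Vip*) and of the receptors that bind them, PAC1 (*Adcyap1r1*), VPAC1 (*Vipr1*) and VPAC2 (*Vipr2*). They were chosen by name and not by their values, though with earlier results of these data known. All 5 were found among the 13886 genes listed. RNA was sequenced from 6 libraries of MeA micro-punches of female Kiss1Cre+/Rpl22HA+/+ mice, in which Cre driven by *Kiss1* puts an HA tag on the ribosomal protein Rpl22, so that ribosomes of *Kiss1* cells can be pulled down with their RNA. The ovaries of all females were removed (OVX) at an age of 8 weeks, after which every mouse received E2 (estradiol) for 4 days to drive Cre and then none for 7 days. In the E2 group a new E2 capsule was then given for 5 days, and the OVX group received no capsule over the same 5 days. Each group had 3 libraries, and each library was a single pool from 4 mice, so differences rest on the spread between pools. No library from Cre-negative mice or from the tissue before the pull-down was analysed here.

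PACAP and VIP are cut from larger precursors and belong to the secretin family of peptides. PAC1 prefers PACAP, while VPAC1 and VPAC2 bind both peptides with similar affinity. All of these receptors are class B1 G protein-coupled receptors, which raise cAMP through the stimulatory G protein and can also act through phospholipase C. In the brain PACAP is known for its roles in stress and in energy balance, and VIP marks a class of cortical interneurons and cells of the suprachiasmatic nucleus.

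The regions around the starts of the ligand genes are shown because they hold a stretch of letters in common. Each runs from 250 bases before to 50 bases after the annotated start, 5′ to 3′ on the plus strand of GRCm38.p6 (RefSeq), at chr17:93198767-93199066 for *Adcyap1* and chr10:5638968-5639267 for *Vip*, with TGACGTC in capitals.
Adcyap1: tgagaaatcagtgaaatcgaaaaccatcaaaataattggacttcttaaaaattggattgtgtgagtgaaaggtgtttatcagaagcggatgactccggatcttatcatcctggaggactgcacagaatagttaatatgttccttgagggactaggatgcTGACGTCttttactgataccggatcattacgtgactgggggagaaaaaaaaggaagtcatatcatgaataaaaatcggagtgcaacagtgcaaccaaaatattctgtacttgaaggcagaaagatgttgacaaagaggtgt
Vip: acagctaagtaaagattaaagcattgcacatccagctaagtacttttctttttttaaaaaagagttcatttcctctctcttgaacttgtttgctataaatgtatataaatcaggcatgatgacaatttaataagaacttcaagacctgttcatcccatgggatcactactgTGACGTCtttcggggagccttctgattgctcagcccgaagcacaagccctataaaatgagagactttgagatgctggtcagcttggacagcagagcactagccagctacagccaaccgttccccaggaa
TGACGTC lies 91 bases before the start of *Adcyap1* and 79 bases before that of *Vip*, and in each it is followed by T. It is the cAMP response element TGACGTCA without its last base, and it was picked out after these sequences had been read. Of the 32851 windows of this length, 3.21% hold TGACGTC on either strand, 1.79% hold TGACGTCA, which contains it, and 20.8% hold the core TGACG, which both contain. The windows of *Adcyap1r1* and *Vipr2* hold none of the 3, and that of *Vipr1* holds TGACG alone, on the minus strand. The full estrogen response element is GGTCA and its reverse complement TGACC with 3 bases between them. It is in none of the windows of the 5 genes and in 0.07% of all windows. GGTCA alone, searched on both strands, is in the window of *Vip* only among the 5 genes and in 40.5% of all windows. The ligand windows are poor in G and C, with 39.0% for *Adcyap1* and 41.7% for *Vip*, against 67.3% for *Adcyap1r1*, 73.7% for *Vipr1* and 65.3% for *Vipr2* and a median of 52.7% over all windows. *Adcyap1* has another annotated start, whose window at chr17:93198918-93199217 overlaps the one shown and holds the same TGACGTC. These are letters in the genome, and no binding was measured in these samples.

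The values per library are log2 CPM, that is, counts scaled by the size of the library on a log2 scale, made by the authors with voom after TMM scaling. Scaled library sizes, computed from the lowest value of each library, were between 28.1M and 34.2M counts, and correlations between libraries across genes were between 0.977 and 0.989. E2 and OVX libraries were compared with limma over all 13886 genes, with Benjamini-Hochberg adjustment, and a gene was called at an adjusted p under 0.05. This called 40 genes, or 0.288% of all, of which 32 were higher with E2 and 8 lower. *Kiss1*, which marks the labelled cells, is listed as overlapping gene models, and the model ENSMUSG00000115958 was higher with E2 (difference 1.91, SE 0.26, adjusted p = 0.00475). The other listed model, ENSMUSG00000116158, had a difference of 5.05 (SE 1.09, adjusted p = 0.0943) and was not called. This difference rests in part on OVX replicate 1 at -5.82 log2 CPM, the lowest value of that library. OVX replicates 2 and 3 had -0.65 and 0.10. All exonic bases of this model are shared with other gene models. The call of ENSMUSG00000115958, like all of the 40, was lost when limma was fitted without its mean-variance trend. That fit called 0 genes (1017 at an unadjusted p under 0.05). Markers of other cells were also present, with all 10 of the astrocyte list and all 5 of the choroid plexus list. So were all 6 of the oligodendrocyte, of the microglia and of the endothelial and mural lists. All 6 genes of the forebrain excitatory neuron list were present too. Whether these came from labelled or other cells cannot be told without libraries from before the pull-down. In these pools fewer cells of a type and less RNA per cell cannot be told apart.

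None of the 5 genes was called between E2 and OVX (0 of 5 with limma, against 0.288% of all genes, or 0.23% higher and 0.0576% lower with E2), and 0 of 5 had an unadjusted p under 0.05. With voom weights on rebuilt counts, both counts were again 0. The E2 and OVX libraries overlapped for each of the 5 genes, while the groups did not overlap for 13.7% of all genes. Adjusted p-values ran from 0.742 to 0.964. The unadjusted p depended on single libraries. With a library left out, its lowest value in limma was 0.012 for *Adcyap1*, 0.040 for *Vip* and 0.045 for *Vipr2*. For *Vipr1* it was 0.099 and for *Adcyap1r1* 0.24. The lowest adjusted p among these fits was 0.344, for *Adcyap1*. The differences and their 95% intervals, which limit the changes that these libraries leave possible, were far narrower for *Adcyap1r1* than for *Vipr2*.

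Per kilobase of the longest transcript, the order of the 5 genes was *Adcyap1r1*, *Adcyap1*, *Vipr1*, *Vip* and *Vipr2*. The mean level of 6 libraries was 4.95 log2 CPM per kb for *Adcyap1r1* and 4.21 for *Adcyap1*, which is 1.67-fold lower, with no overlap of the libraries' ranges. *Vipr1* followed at 1.87 log2 CPM per kb, 5.06-fold below *Adcyap1* and also without overlap. *Vip* had 1.63 log2 CPM per kb, and its range from 1.23 to 1.97 overlapped that of *Vipr1*, from 1.54 to 2.11, so the order of these neighbours is within the spread between libraries. *Vipr2* came last at -1.86 log2 CPM per kb, 11.3-fold below *Vip*. The same order was found when levels were taken per kilobase of the union of exons.

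**Figure D1:**
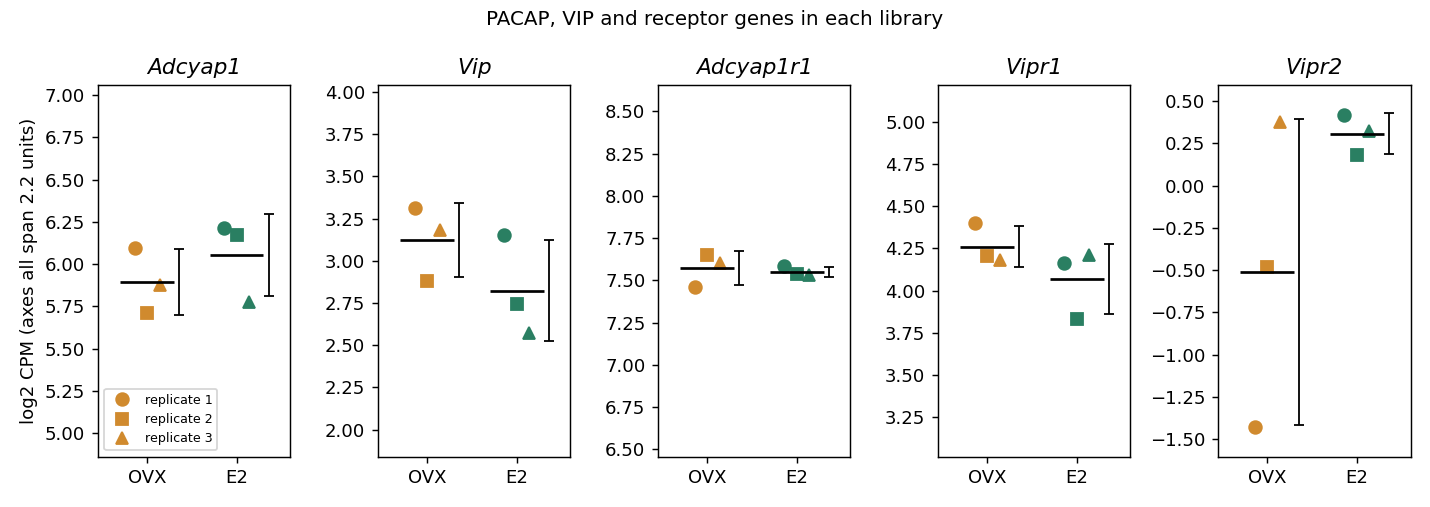
Log2 CPM (y axis) of the 5 genes in each OVX and E2 library (x axis), with the group mean as a line and the SD of 3 libraries as an error bar; each axis spans the same number of log2 units. *Adcyap1r1* lies within 0.19 log2 units in all 6 libraries, the groups overlap for each gene, and OVX replicate 1 of *Vipr2* is lowest at -1.43.

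*Adcyap1* (ENSMUSG00000024256, chromosome 17 from 93199017 to 93206537), the precursor of PACAP, stood at 6.10, 5.71 and 5.88 log2 CPM in OVX replicates 1, 2 and 3. In E2 replicates 1, 2 and 3 it had 6.21, 6.17 and 5.78. E2 replicates 1 and 2 were thus above every OVX library, and E2 replicate 3 was below OVX replicates 1 and 3. The difference was 0.16 (SE 0.12, 95% interval -0.092 to 0.41, adjusted p = 0.782), which is 1.12-fold with an interval from 0.938-fold to 1.33-fold. Rebuilt counts were between 1650 and 2452 per library, so the level is well above the depth limit.

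*Vip* (ENSMUSG00000019772, chromosome 10 from 5639218 to 5647617), the precursor of VIP and of the related peptide PHI, stood at 3.31, 2.88 and 3.18 log2 CPM in OVX replicates 1, 2 and 3. In E2 replicates 1, 2 and 3 the values were 3.15, 2.74 and 2.57. The highest value was in an OVX library and the lowest in an E2 library, but E2 replicate 1 was above OVX replicate 2. The difference was -0.30 (SE 0.20, 95% interval -0.72 to 0.12, adjusted p = 0.742), or 0.812-fold with an interval from 0.607-fold to 1.09-fold. Between 192 and 280 rebuilt counts stood behind each value.

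The levels of the ligands were also placed among 45 neuropeptide precursor genes, of which 27 are listed, as 28 gene models. By log2 CPM per kb *Adcyap1* ranked 9 of 28, below *Tac1*, the precursor of substance P (4.45), and above *Agt*, the angiotensinogen gene (3.87). Its range over libraries overlapped those of both neighbours. *Vip* ranked 18 of 28, below *Gal*, the galanin gene (2.27), and above *Nppc*, the gene of C-type natriuretic peptide (1.57), again with overlapping ranges. Per kilobase of the union of exons both orders turned, with *Adcyap1* at 4.06 and rank 8 above *Tac1* at 3.67, and *Vip* at 1.21 and rank 19 below *Nppc* at 1.57. *Cck*, the cholecystokinin gene, was highest at 9.41. Of the other secretin family ligand genes, *Sct*, *Gcg*, *Ghrh* and *Gip*, 0 of 4 are listed, and since the table holds only genes above a minimum, their level is not known. Of the 28 gene models, 2 were called as higher with E2, a model of *Kiss1* and *Gal* (difference 2.04, adjusted p = 0.00609), against 0.23% of all genes, and 0 as lower, against 0.0576%. With voom weights 3 of the 28 were called, against 46 of all 13886 genes. Both listed models of *Kiss1* are among the 28, so called models are not a count of separate genes. Without the mean-variance trend both limma calls were lost. At an unadjusted p under 0.05 there were 8 of 28 in limma, against 8.56% of all genes. The 8 include both listed models of *Kiss1*, which overlap, so this gene is counted more than once. The median difference was 0.12, against 0.0034 over all genes.

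*Adcyap1r1* (ENSMUSG00000029778, chromosome 6 from 55451978 to 55501451), which encodes PAC1, stood at 7.46, 7.65 and 7.60 log2 CPM in OVX replicates 1, 2 and 3. The E2 libraries, at 7.58, 7.54 and 7.53, all lay within the range of the OVX libraries. The difference was -0.022 (SE 0.061, 95% interval -0.15 to 0.11, adjusted p = 0.964), which is 0.985-fold with an interval from 0.899-fold to 1.08-fold. The SD over the 6 libraries was smaller for only 13.0% of all genes. PAC1 has splice forms that differ in signalling, and the reference lists 8 transcripts of the gene, but the values here are for the whole gene and cannot tell them apart. *Adcyap1r1* is also expressed in astrocytes. The summed level of the 10 astrocyte genes, as log2 of summed CPM, was 10.77, 11.08 and 10.81 in OVX and 11.09, 10.88 and 11.15 in E2 replicates 1, 2 and 3, and its part in the level of *Adcyap1r1* was not tested. The astrocyte sum was lowest in OVX replicate 1 and highest in E2 replicate 3. *Adcyap1r1* was lowest in OVX replicate 1 and highest in OVX replicate 2.

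*Vipr1* (ENSMUSG00000032528, chromosome 9 from 121642716 to 121672954), which encodes VPAC1, stood at 4.40, 4.20 and 4.18 log2 CPM in OVX replicates 1, 2 and 3. In E2 replicates 1, 2 and 3 they were 4.16, 3.83 and 4.21. E2 replicate 2 stood lowest, and E2 replicate 3 lay above OVX replicates 2 and 3. The difference was -0.19 (SE 0.13, 95% interval -0.47 to 0.085, adjusted p = 0.749), or 0.875-fold with an interval from 0.722-fold to 1.06-fold. Without E2 replicate 2 it was -0.074, with an adjusted p of 0.962 in limma. The summed level of the 6 forebrain excitatory genes, as log2 of summed CPM, was 10.15, 9.90 and 9.78 in OVX and 9.50, 9.38 and 9.77 in E2 replicates 1, 2 and 3. Most of this sum came from *Slc17a7*, at 9.91, 9.64 and 9.50 log2 CPM in OVX and 9.22, 9.07 and 9.50 in E2 replicates 1, 2 and 3. The sum and *Vipr1* were both highest in OVX replicate 1 and lowest in E2 replicate 2. For *Vipr1* E2 replicate 3 lay above OVX replicates 2 and 3, and for the sum it lay below both. All 6 genes of that list had negative differences, with a median of -0.48, 0 of 6 were called (0.288% of all genes) and 5 of 6 had an unadjusted p under 0.05 in limma (8.56% of all genes). With voom weights 0 of 6 were called and 4 of 6 had an unadjusted p under 0.05. Their part in the values of *Vipr1* was not tested.

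*Vipr2* (ENSMUSG00000011171, chromosome 12 from 116077726 to 116146261), which encodes VPAC2, was close to the lower limit of the table and ranked 13780 of 13886 genes by mean log2 CPM. Its log2 CPM was -1.43, -0.48 and 0.38 in OVX replicates 1, 2 and 3. It was 0.42, 0.18 and 0.32 in E2 replicates 1, 2 and 3. OVX replicates 1 and 2 were thus low, while OVX replicate 3 was within the range of the E2 libraries. Rebuilt counts were 10, 24 and 36 in OVX and 40, 38 and 40 in E2 libraries. The difference was 0.82 (SE 0.55, 95% interval -0.36 to 1.996, adjusted p = 0.749), or 1.76-fold with an interval from 0.779-fold to 3.99-fold. It was 0.36 without OVX replicate 1 and 1.26 without OVX replicate 3, with adjusted p-values of 0.968 and 0.532 in limma. The mean CPM was 0.796 in OVX and 1.24 in E2, and 117 genes in all had a mean CPM above 1 in the E2 libraries only, against 91 in the OVX libraries only. All 13886 genes have a CPM above 1 in at least 3 libraries, and *Vipr2* passed such a minimum through the 3 E2 libraries, where it is high, and OVX replicate 3.

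Among 15 class B1 receptor genes, 12 are listed, and *Sctr*, *Ghrhr* and *Gcgr* are not. *Adcyap1r1* ranked 1 of 12 by log2 CPM per kb, 3.33-fold above *Crhr1*, the CRH receptor gene (3.21), and the ranges of the libraries did not overlap. *Vipr1* ranked 4, between *Calcr*, the calcitonin receptor gene (2.36), and *Pth1r*, a parathyroid hormone receptor gene (1.56), and its range overlapped both. *Pth1r* and *Glp2r* share some exonic bases with neighbouring genes. *Vipr2* ranked 12, and its level of -1.86 was next to that of *Glp2r* at -1.84. None of the 12 genes was called with limma (0.288% of all genes) or with voom weights. In each, 1 of 12 had an unadjusted p under 0.05, which is close to the share over all genes, 8.56% in limma. The median difference of the 12 genes was -0.085, against 0.0034 over all genes.

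**Figure D2:**
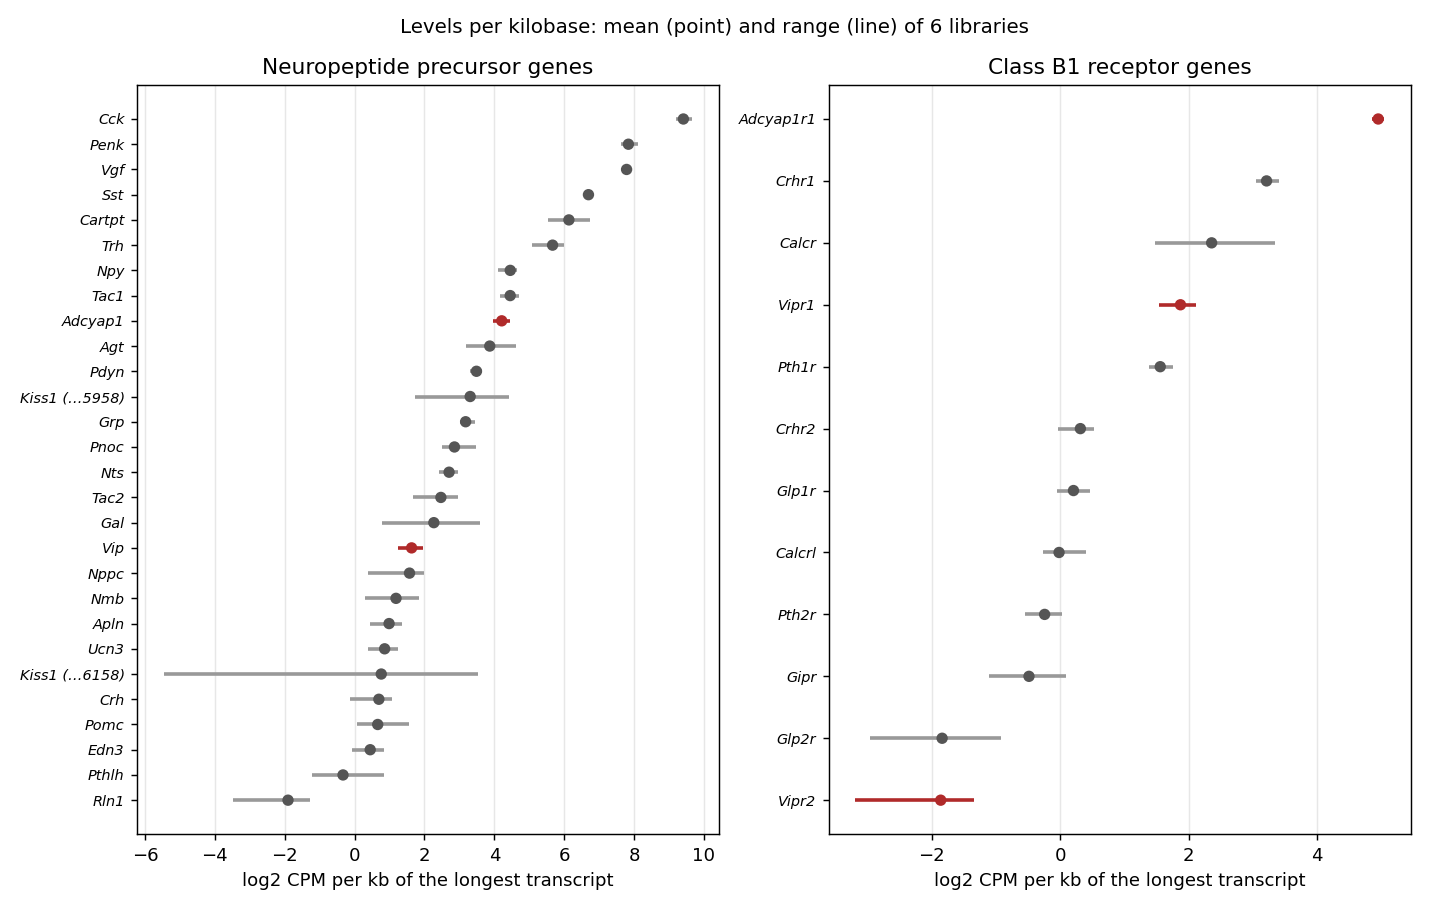
Levels of neuropeptide precursor genes (left) and class B1 receptor genes (right) as log2 CPM per kb of the longest transcript (x axis); points are means and lines the ranges of 6 libraries, and the PACAP and VIP genes are in red. *Adcyap1r1* is highest of the 12 listed receptors at 4.95 and *Vipr2* lowest at -1.86, while *Adcyap1* ranks 9 and *Vip* 18 of 28 gene models.

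Whether genes of the system moved apart was asked with the log2 ratio of each of the 10 pairs of the 5 genes within a library. The *Adcyap1*/*Vip* log2 ratio was 2.79, 2.83 and 2.70 in OVX replicates 1, 2 and 3 and 3.06, 3.43 and 3.21 in E2 replicates 1, 2 and 3. All E2 libraries lay above all OVX libraries, although the groups overlapped for either gene alone. The mean was 2.77 ± 0.068 (SD, n = 3) for the OVX libraries and 3.23 ± 0.19 (SD, n = 3) for the E2 libraries, a difference of 0.46 with a two-sided exact permutation p of 0.1, the smallest that 3 against 3 libraries can give, and 0.4 after adjustment over 10 pairs. With each library left out in turn, this difference stayed between 0.36 and 0.55. The *Vip*/*Vipr2* log2 ratio did not overlap either, with a difference of -1.12 and the same exact permutation p of 0.1 (0.4 adjusted), and it rests on the low counts of *Vipr2*. It was -0.57 without OVX replicate 1 and -0.62 on the scale of log2 of CPM plus 1. The mean CPM of *Vipr2* is above 1 in the E2 libraries only, and a minimum passed in this way favours a *Vipr2* that is higher with E2, so the direction of this ratio is given as a description. For the other 8 pairs the exact permutation p was between 0.2 and 0.7. The pairs share genes and are not independent of each other, and this design cannot reach a p under 0.05.

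**Figure D3:**
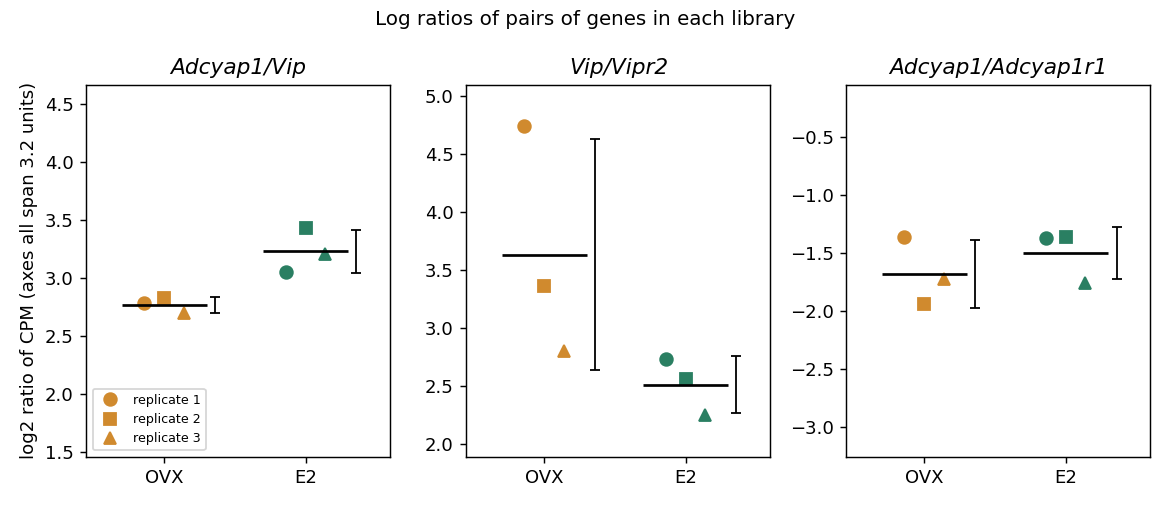
Log2 ratio of CPM (y axis) of 3 pairs of genes in each OVX and E2 library (x axis), with the group mean as a line and the SD of 3 libraries as an error bar. *Adcyap1*/*Vip* lies between 2.70 and 2.83 in OVX and between 3.06 and 3.43 in E2, while *Adcyap1*/*Adcyap1r1* overlaps between the groups.

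The genes that make and transmit the PACAP and VIP signal were examined as lists by role, with 61 of 62 genes listed. None of the 61 was called with limma or with voom weights, and 7 of 61 had an unadjusted p under 0.05 in each, against 8.56% of all genes in limma. Their differences ran from -0.31 to 0.29, with a median of -0.017, and the groups did not overlap for 7 of 61 genes (11.5%), against 13.7% of all genes.

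Among 7 precursor processing genes, *Pcsk1* and *Pcsk2*, which encode the prohormone convertases, stood at the ends. *Pcsk1* stood at 5.99, 6.01 and 6.14 log2 CPM in OVX and 6.35, 6.23 and 6.20 in E2, a difference of 0.21 (SE 0.071, adjusted p = 0.397). *Pcsk2* had 8.60, 8.60 and 8.58 in OVX and 8.41, 8.43 and 8.52 in E2, a difference of -0.14 (SE 0.053, adjusted p = 0.454). The groups did not overlap for either gene, in opposite directions, and neither was called. *Pcsk2* shares exonic bases with antisense genes, from which unstranded reads cannot be told apart. *Pam*, which amidates peptides such as PACAP and VIP, had a difference of -0.050 (adjusted p = 0.896) and also shares a few exonic bases with another gene. *Mme*, the gene of the peptidase neprilysin, had a difference of -0.31 (adjusted p = 0.763), and *Dpp4*, the other degradation gene, is not listed.

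Of 7 G protein genes, the lowest difference was -0.045 for *Gnas*, the stimulatory alpha subunit, and the highest 0.076 for *Gnal*, its olfactory relative. Both share exonic bases with other gene models, and *Gnas* had the adjusted p of 0.906 and *Gnal* that of 0.811. Among 8 adenylyl cyclase genes, *Adcy1* was lowest at -0.24 (SE 0.11, adjusted p = 0.563) and *Adcy7* highest at 0.11. For 11 protein kinase A genes the differences ran from -0.14 for *Pkib*, which encodes an inhibitor, to 0.083 for *Prkacb*, a catalytic subunit. The 5 genes of Epac and Rap signalling ran from -0.11 for *Rapgef2* to 0.12 for *Rap1a*. None of these values was past the threshold.

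In the phospholipase C list, *Plcb4* was highest (difference 0.27, SE 0.092, adjusted p = 0.404) and *Prkcb* lowest (difference -0.18, SE 0.074, adjusted p = 0.529). *Prkca*, which encodes a protein kinase C, had the smallest adjusted p of all 61 genes. Its log2 CPM was 7.51, 7.46 and 7.49 in OVX and 7.67, 7.76 and 7.74 in E2, with no overlap. E2 libraries were higher by 0.23 (SE 0.054, adjusted p = 0.125). Among 8 genes of CREB and its coactivators, *Atf1* was highest at 0.29 (adjusted p = 0.715) and *Ep300* lowest at -0.16 (adjusted p = 0.552). The 6 desensitization genes, kinases and arrestins that switch receptors off, ran from -0.078 for *Grk6* to 0.074 for *Grk5*.

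**Figure D4:**
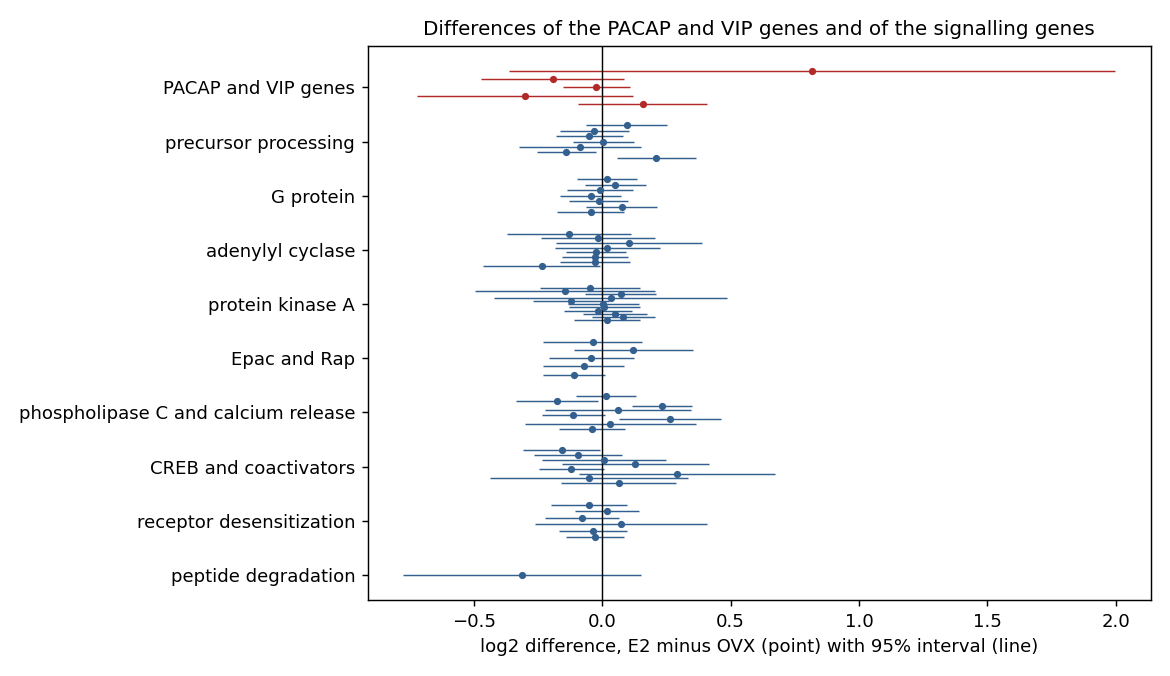
Log2 difference, E2 minus OVX (x axis), with its 95% interval for each gene, by role (y axis); in the top group the red points are, from top to bottom, *Vipr2*, *Vipr1*, *Adcyap1r1*, *Vip* and *Adcyap1*. The intervals of all 5 include 0, and that of *Vipr2*, from -0.36 to 1.996, is the widest shown.

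Neurons for which VIP is a marker were looked for through other genes of such cells. Of 6 genes of the VIP interneuron list 5 are listed, and *Chat* is not. *Adarb2* (difference 0.39, adjusted p = 0.270) and *Prox1* (0.46, adjusted p = 0.4995) had positive differences and *Htr3a* one of -0.00096, while that of *Vip* was negative, and 0 of the 5 were called in limma (0.288% of all genes), with 2 of 5 at an unadjusted p under 0.05 (8.56% of all genes). With voom weights these counts were again 0 and 2. For *Adarb2* and *Prox1*, 2 of the 5 genes, the groups did not overlap, against 13.7% of all genes. In all, 4 of the 5 had positive differences, with a median of 0.30, against 0.0034 over all genes. As log2 of summed CPM the 5 genes ranged from 8.08 to 8.52 in OVX and from 8.13 to 8.47 in E2 libraries. Most of this sum came from *Calb2*, the calretinin gene, whose own log2 CPM ranged from 7.89 to 8.40 in OVX and from 7.92 to 8.30 in E2, with a difference of 0.0039. Of 6 suprachiasmatic genes *Avp*, *Nms* and *Six6* are not listed, and of the 3 that are, *Prokr2*, a prokineticin receptor gene, was called as higher with E2 (difference 0.99, SE 0.17, adjusted p = 0.0211, against 0.23% of all genes called as higher), a call that was lost without the mean-variance trend. The authors also list *Prokr2* among transcripts of MeA *Kiss1* cells raised by E2, and which cells it came from was not tested here. *Grp*, the gene of gastrin-releasing peptide, and *Rorb*, which encodes a nuclear receptor, had differences of -0.029 and -0.034 (adjusted p = 0.985 for each). The median of the 3 was -0.029.

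The genes most like each of the 5 were named by Pearson's r of log2 CPM over the 6 libraries, among 10630 or 10631 genes with a mean of at least 3, as a description of the same 6 points. They were *Zfp623* (0.997) for *Adcyap1*, *Stxbp6* (0.988) for *Vip*, *Cntn3* (0.987) for *Adcyap1r1*, *Nptxr* (0.995) for *Vipr1* and *Spag1* (0.993) for *Vipr2*. Next came *Snrnp27* and *Usp4*, *Cntn1* and *Sf3a3*, *Bmp6* and *Camsap2*, *Grin2a* and *Bhlhe22*, and *Nanos1* and *Pex26*, in the same order. Between 63 and 143 genes had a value above 0.9 with each of the 5, so these names single out little over 6 libraries. *Nptxr*, *Spag1*, *Bmp6*, *Camsap2* and *Pex26* share exonic bases with other genes.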

How the data were processed

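RNA from HA-tagged ribosomes of *Kiss1* cells was measured in 3 OVX and 3 E2 libraries. The deposited values are log2 CPM per gene, which the authors made with Trimmomatic 0.38, STAR 2.6.0a and RSEM on GRCm38, limiting genes to protein-coding ones above a mean CPM of 1 in a treatment group, with TMM scaling and voom. As deposited, 18 genes are not above that mean in either group, while all 13886 have a CPM above 1 in at least 3 libraries. Libraries were unstranded. The authors' table of fold changes and p-values was not used. Each difference was tested on the log2 CPM by limma 3.58.1 (R 4.3.3), with treatment as the only term and a mean-variance trend, two-sided, adjusted over 13886 genes. The trend stands in for voom weights, which need counts. Counts were rebuilt on the assumption that a library's lowest value is a count of 0 plus 0.5, and all had at most 2 decimals (within 0.001 of a count). Each limma p-value sets a difference against the spread between pools, with variances moderated toward the trend over all genes (prior degrees of freedom 9.55). Log ratios were tested by exact permutation. Lengths and positions came from GENCODE mouse release M21 (GRCm38), with a length for 13881 genes, and sequences from RefSeq (GRCm38.p6), in which 5 of 5 genes matched. The pipeline was tested on simulated data. Genes named beyond the 5 are those called, the ends of each list, neighbours in level and the 3 most alike. In addition, *Pam*, *Prkca*, *Slc17a7*, *Adarb2*, *Prox1*, *Htr3a*, *Calb2*, *Grp* and *Rorb* were chosen after their values were seen. The 5 genes and all lists were chosen with earlier results of these data known. Alternatives were the fit without trend, voom weights, scaling, filters, added constants, robust fits, a replicate block and each library left out.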

Additional observations from a re-analysis of the deposited data

How the results depend on the processing

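Of the 74 alternative values of the 5 differences, 73 kept their direction and side of the threshold. The side says little, since adjusted p-values of the main limma fit, from 0.742 to 0.964, were far from the threshold. The difference of *Adcyap1r1* ran from -0.077 to 0.019 with a library left out, turning positive without OVX replicate 2. With a library left out, the differences ran from 0.066 to 0.30 for *Adcyap1*, -0.47 to -0.17 for *Vip*, -0.26 to -0.074 for *Vipr1* and 0.36 to 1.26 for *Vipr2*. The difference of *Vipr2* was 0.35 on the scale of log2 of CPM plus 1, and it has no value where a CPM over 1 was asked of all libraries. The log ratio *Vip*/*Vipr1* ran from -0.23 to 0.088, turning positive without E2 replicate 3. Per kilobase of the union of exons, the levels moved to 1.21 for *Vip*, 4.84 for *Adcyap1r1* and 1.63 for *Vipr1*. Over all genes, 40 were called, 0 without the mean-variance trend (1017 at an unadjusted p under 0.05 in limma), and 20 to 66 with a library left out (21 without OVX replicate 1, 26 without E2 replicate 1, 20 without E2 replicate 2 and 66 without E2 replicate 3), and the cause was not tested. Libraries that share a replicate number did not deviate together (correlations of -0.021, -0.12 and -0.083), and a replicate block called 35 genes, none of them among the 5, with an adjusted p of 0.918 for *Adcyap1* in limma. The 61 signalling genes gave 0 calls under all 15 alternatives, which were added for them after the data were seen, as was the block for log ratios.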
